A study of Mus musculus with 12 samples.

Results

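A Dicer-complemented line named SOM was compared with the Dicer knockout (KO) in a mouse embryonic stem cell line, E14, whose strain background is 129/Ola. The comparison rests on 4 of the 12 libraries of the study, 2 labelled SOM and 2 labelled KO. E14 is a line of pluripotent cells derived from the blastocyst. The other groups, also with 2 libraries each, are WT and the Dicer-complemented lines 41584, 41585 and 41589. By their labels 41584 is similar to WT, 41585 lacks miRNA and siRNA processing, and 41589 lacks siRNA processing. Every line grew in serum and LIF on gelatin and was kept in puromycin, the controls included. Poly(A) RNA was extracted with Trizol and read as reverse-stranded libraries. The labels do not give the meaning of the name SOM, the Dicer sequence put back or the part of the gene that the knockout lost. Whether replicates were separate cultures or clones is not given either. The p-values therefore measure only the spread between libraries of a group, which may be technical. That spread was estimated over all 6 groups together, not from SOM and KO alone.

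Dicer is the RNase that cuts hairpin precursors into mature miRNAs and long double-stranded RNA into siRNAs. A miRNA guides an Argonaute protein to mRNAs whose 3′ UTR pairs with the miRNA seed, and the mRNA is then destabilised and translated less. In mouse embryonic stem cells the most abundant miRNAs are known to come from the miR-290 cluster, which shares a seed with the miR-302 cluster. Both are known to act on inhibitors of the cell cycle. miRNAs of the miR-17 family have a closely related seed.

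These mature sequences are shown because the target-site results below turn on their seed. Capitals mark bases 2 to 8 of each miRNA. RefSeq, on GRCm38.p6, held 5 miRNAs of the miR-290 and miR-302 clusters with the seed AAGUGCU, 3 on chromosome 7 and 2 on chromosome 3. A pair of miR-17 family members from chromosomes 14 and 5 follows, with the seed AAAGUGC.
miR-291a-3p (chr7:3218968-3218989, plus strand): aAAGUGCUuccacuuugugugc
miR-294-3p (chr7:3220691-3220712, plus strand): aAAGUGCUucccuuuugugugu
miR-295-3p (chr7:3220815-3220837, plus strand): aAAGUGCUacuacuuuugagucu
miR-302b-3p (chr3:127545275-127545297, plus strand): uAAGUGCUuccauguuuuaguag
miR-302d-3p (chr3:127545665-127545687, plus strand): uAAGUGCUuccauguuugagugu
miR-17-5p (chr14:115043684-115043706, plus strand): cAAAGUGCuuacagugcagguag
miR-93-5p (chr5:138165574-138165596, minus strand): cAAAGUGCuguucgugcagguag
The seed AAGUGCU pairs with the letters AGCACTT in an mRNA, and AAAGUGC with GCACTTT.

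The 4 libraries held 5348401 to 8357647 counted reads, the SOM libraries fewer than the KO libraries. The SOM libraries correlated with each other at 0.975 over log2(CPM + 1), the KO libraries at 0.988, and SOM with KO libraries at 0.933 to 0.952. Mitochondrially encoded genes took 3.79 and 4.04% of the reads in SOM and 4.61 and 4.90% in KO. KO replicate 2 stood apart from the other libraries by chromosome Y, with 74 counts there against 1642 to 3760 in the other 3, so that chromosome was left out in an alternative fit. Markers of embryonic stem cells were abundant on both sides: Nanog was at 610 and 584 CPM in KO and 783 and 568 CPM in SOM, and Pou5f1 at 509 and 465 CPM in KO and 749 and 551 CPM in SOM. The summed level of 12 fibroblast markers was 13.4 to 14 CPM in KO and 19.7 to 27.1 CPM in SOM, with Lum and Postn at 0 in all 4 libraries.

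Dicer1, at chromosome 12: 104687742–104751952 of GRCm38, was read at 28.5 and 44 CPM in KO and 105 and 215 in SOM (CPM, reads relative to the TMM-scaled library total). Both SOM libraries lay above both KO libraries, and the SOM libraries differed from each other by more than the KO libraries did. WT libraries held 197 and 214 CPM, 41584 42.3 and 55.0 CPM, 41585 29.1 and 39.2 CPM, and 41589 40.2 and 27.8 CPM. Dicer1 rose in SOM against KO (log2 fold 2.14 ± 0.35, edgeR adjusted p = 0.00515, n = 2 libraries per group here and in every comparison). Folds are fitted log2 values ± a standard error worked back from the fold and the F statistic of the edgeR test. A gene was called at an adjusted p under 0.05. The Dicer1 call ended without KO replicate 1 (adjusted p = 0.081). Since the changed part of the gene is not given, these counts check the labels only in so far as the counted reads cover it.

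Among 24 tested genes of small RNA pathways, 2 rose and 2 fell in SOM. Of those that rose, Dicer1 is the gene in which SOM and KO differ by label. Over all 14629 tested genes, 1.48% were called higher in SOM and 4.60% lower. Lin28a, the RNA-binding protein that blocks let-7 maturation, was at 18.5 and 24.2 CPM in KO and 284 and 324 in SOM. Its SOM and KO levels were far apart, and the call held whichever of the 4 libraries was left out (log2 fold 3.83 ± 0.38, edgeR adjusted p = 0.000492). The GW182 proteins bring the deadenylation machinery to Argonaute. Their genes Tnrc6b (305 and 274 CPM in KO and 98.2 and 127 in SOM) and Tnrc6a (292 and 312 CPM in KO and 118 and 190.1 in SOM) fell (−1.36 ± 0.28, adjusted p = 0.0153 and −0.97 ± 0.26, adjusted p = 0.0436 by edgeR), whereas Tnrc6c, at 61.4 and 61.6 CPM in KO and 61.2 and 71.6 in SOM, was not called (log2 fold 0.11 ± 0.25, edgeR adjusted p = 0.859). The Tnrc6b call ended without any 1 of the 4 libraries (adjusted p = 0.0526 to 0.185). The Tnrc6a call ended without SOM replicate 1 (adjusted p = 0.365), KO replicate 1 (0.212) or KO replicate 2 (0.206).
The nuclear processing genes Drosha (−0.20 ± 0.23, adjusted p = 0.696) and Dgcr8 (−0.11 ± 0.28, adjusted p = 0.88) and the exporter Xpo5 (0.34 ± 0.23, adjusted p = 0.47) were not called by edgeR. Of the Argonaute genes, Ago1 stood at 226 and 213 CPM in KO and 79.2 and 151 in SOM (log2 fold −0.93 ± 0.33, edgeR adjusted p = 0.122) and Ago2 at 464 and 482 CPM in KO and 329 and 421 in SOM (log2 fold −0.33 ± 0.28, edgeR adjusted p = 0.562). Neither passed the test, although Ago1 did with no filter on low counts (adjusted p = 0.0159).

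In the whole comparison 889 of 14629 tested genes were called (6.08%), of which 216 were higher in SOM and 673 lower. These are 1.48% and 4.60% of the tested genes, the shares against which the counts of each list below are to be read. The median fold was 1.90 on the log2 scale among the higher genes and −2.10 among the lower. A fold of at least 4 was reached by 103 of the higher and 367 of the lower genes. Protein-coding genes made up 207 of the higher and 643 of the lower. The SOM mean was under 1 CPM for 135 of the lower genes, and the KO mean was under 1 CPM for 47 of the higher. The number of calls leaned on single libraries. It was 107 without SOM replicate 1, 368 without SOM replicate 2, 139 without KO replicate 1 and 307 without KO replicate 2, and 74 genes were called whichever of these was left out. With only the SOM and KO libraries in the fit it was 2265 (746 higher and 1519 lower).

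**Figure D1:**
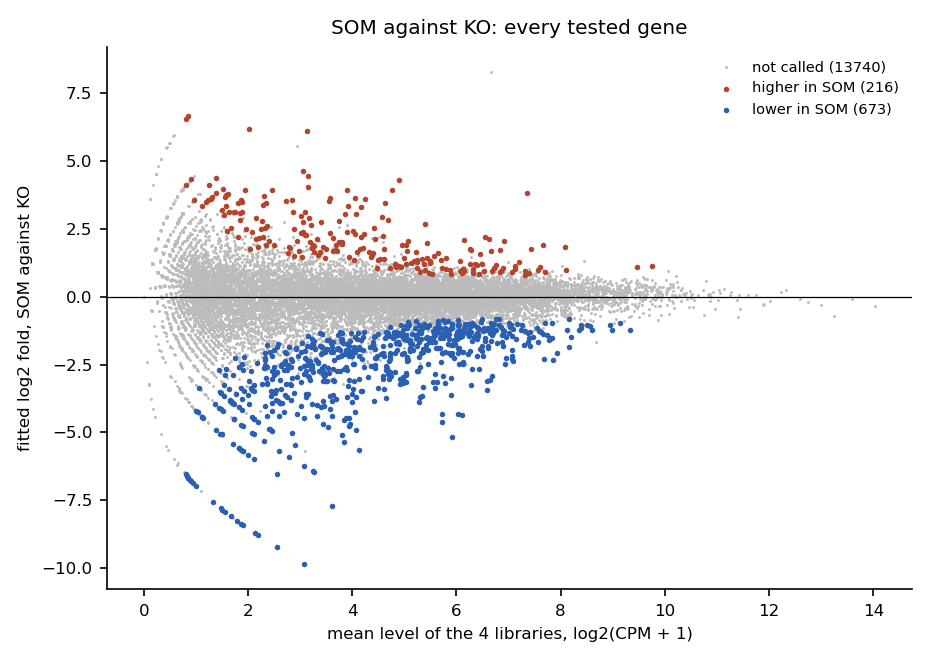
Fitted log2 fold of SOM against KO (vertical axis) for each of the 14629 tested genes against its mean level in the 4 libraries, as log2(CPM + 1) (horizontal axis). Red points are the 216 genes called higher in SOM, blue points the 673 called lower, and grey points the genes not called.

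The 74 genes that kept their call whichever library was left out, 18 higher and 56 lower in SOM, were picked out after their values were seen. Among the higher ones, Klf4, a transcription factor of the naive state, was at 53.8 and 51.7 CPM in KO and 173 and 175 in SOM (log2 fold 1.72 ± 0.26, edgeR adjusted p = 0.00318). Kit, the receptor of stem cell factor, was at 47.2 and 49.1 CPM in KO and 143 and 162 in SOM (log2 fold 1.66 ± 0.24, edgeR adjusted p = 0.00237). For both genes the replicates of a group lay close together and the groups were well apart, which the way these genes were picked favours.
Smarca1, an ISWI chromatin remodelling ATPase, was at 4.27 and 6.31 CPM in KO and 39.8 and 41.1 in SOM (log2 fold 2.94 ± 0.39, edgeR adjusted p = 0.00169). Pros1, the anticoagulant protein S, was at 11 and 11.4 CPM in KO and 57.9 and 84.5 in SOM (log2 fold 2.67 ± 0.36, edgeR adjusted p = 0.00169). The protease inhibitor gene Serpine2 was at 2.07 and 3.39 CPM in KO and 24.2 and 42.1 in SOM (log2 fold 3.61 ± 0.50, edgeR adjusted p = 0.00194). The KO level of these 3 genes was low but above 0 in both libraries. Prps2, an enzyme of nucleotide synthesis on chromosome X, was at 42.4 and 51.6 CPM in KO and 161 and 224 in SOM (log2 fold 2.03 ± 0.26, edgeR adjusted p = 0.0015).

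Among the lower of the 74 genes, Tbc1d9, which holds a Rab GTPase-activating domain, was at 74.4 and 67.1 CPM in KO and 4.28 and 5.26 in SOM (log2 fold −3.89 ± 0.31, edgeR adjusted p = 0.00017). Anxa1, the phospholipid-binding annexin A1, was at 141 and 118 CPM in KO and 3.26 and 9.39 in SOM (log2 fold −4.36 ± 0.52, edgeR adjusted p = 0.000963). Lgals9, the lectin galectin-9, was at 154 and 90.8 CPM in KO and 4.46 and 7.7 in SOM (log2 fold −4.33 ± 0.47, edgeR adjusted p = 0.00059). In each case the lowest KO library exceeded the highest SOM library many times over. Smyd1, known as a histone methyltransferase of muscle, was at 176 and 174 CPM in KO and 15.9 and 16 in SOM (log2 fold −3.45 ± 0.39, edgeR adjusted p = 0.000707). Aim2, a sensor of DNA in the cytosol, was at 132 and 139 CPM in KO and 18.7 and 23.9 in SOM (log2 fold −2.67 ± 0.28, edgeR adjusted p = 0.000541). The receptor tyrosine kinase gene Erbb3 was at 228 and 177 CPM in KO and 40.3 and 44 in SOM (log2 fold −2.26 ± 0.23, edgeR adjusted p = 0.000507). For these genes the replicates lay closer to each other than to the other group, which the way they were picked favours.
Plet1, a surface protein known from placental progenitors, was at 82.7 and 62.8 CPM in KO and 6.51 and 7.89 in SOM (log2 fold −3.34 ± 0.45, edgeR adjusted p = 0.00169). Cd24a, a surface glycoprotein, was at 225 and 185 CPM in KO and 38.4 and 34.6 in SOM (log2 fold −2.49 ± 0.28, edgeR adjusted p = 0.00059). Ephx2, the soluble epoxide hydrolase, was at 396 and 282 CPM in KO and 66.5 and 70.3 in SOM (log2 fold −2.31 ± 0.25, edgeR adjusted p = 0.00059).

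The 10 largest rises among called genes with at least 5 CPM in SOM began with Gap43, a growth cone protein of neurons, at 0.122 and 0.308 CPM in KO and 18 and 12.8 in SOM (ratio 76 with a 95% counting interval of 25.6 to 372, edgeR adjusted p = 0.00362). Here and below, a ratio with a counting interval replaces the fold where a group held 1 to 3 counts, and where it held none, a bound computed as if its libraries together had 3 counts. The interval covers counting error only, and the bound leaves out the counting error of the other group. The Gap43 call ended without KO replicate 1 (adjusted p = 0.0635). Tgfbi, a secreted matrix protein, was at 0.244 and 0.924 CPM in KO and 9.6 and 18.4 in SOM (log2 fold 4.61 ± 0.93, edgeR adjusted p = 0.0127). The Tgfbi call ended without any 1 of the 4 libraries (adjusted p = 0.0515 to 0.16).
Sema5b, a semaphorin of axon guidance, was at 0.488 and 0.924 CPM in KO and 14.4 and 16 in SOM (log2 fold 4.43 ± 0.59, edgeR adjusted p = 0.00169). Tro, the adhesion protein trophinin, was at 1.34 and 4.31 CPM in KO and 55.4 and 53.5 in SOM (log2 fold 4.30 ± 0.42, edgeR adjusted p = 0.000492). Gpx3, the secreted glutathione peroxidase, was at 0.732 and 1.08 CPM in KO and 11.7 and 18.2 in SOM (log2 fold 4.04 ± 0.51, edgeR adjusted p = 0.00142). These calls held without any single library. So did those of the X-linked gene Fmr1nb (2.68 and 0.616 CPM in KO and 31.4 and 21.4 in SOM), of Shisa2, which retains Wnt and FGF receptors in the endoplasmic reticulum (0.61 and 0.462 CPM in KO and 6.34 and 10.5 in SOM), and of the phospholipase gene Pla2g1b (1.83 and 4.77 CPM in KO and 62 and 35.9 in SOM). Piwil4, a PIWI protein of the germline small RNA pathway, was at 0.488 and 0.616 CPM in KO and 8.23 and 6.58 in SOM (log2 fold 3.72 ± 0.55, edgeR adjusted p = 0.00285). The Piwil4 call ended without KO replicate 1 (adjusted p = 0.0566).

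Of the 10 largest falls among called genes with at least 5 CPM in KO, 5 had no read at all in either SOM library. Oc90, otoconin of the inner ear on chromosome 15, was at 11 and 8.47 CPM in KO and 0 and 0 in SOM (at least 36.7-fold lower in SOM, edgeR adjusted p = 0.0071). The Oc90 call ended without SOM replicate 1 (adjusted p = 0.0867). The protease inhibitor gene Spint5 (7.32 and 6.93 CPM in KO and 0 and 0 in SOM) was at least 26.6-fold lower in SOM, edgeR adjusted p = 0.00934, and the innate immunity gene Pglyrp3 (8.9 and 4.62 CPM in KO and 0 and 0 in SOM) was at least 26.1-fold lower in SOM, edgeR adjusted p = 0.00752. The Spint5 call ended without SOM replicate 1 (adjusted p = 0.107), SOM replicate 2 (0.0603) or KO replicate 1 (0.0545). The Pglyrp3 call ended without SOM replicate 1 (adjusted p = 0.0793) or KO replicate 1 (0.0586). All 3 genes held few reads even in KO.
The bile salt pump gene Abcb11 (7.44 and 3.54 CPM in KO and 0 and 0 in SOM) was at least 21.3-fold lower in SOM, edgeR adjusted p = 0.00828, and Nwd1 (5.73 and 4.93 CPM in KO and 0 and 0 in SOM) was at least 19.99-fold lower in SOM, edgeR adjusted p = 0.00887. The Abcb11 call ended without SOM replicate 1 (adjusted p = 0.0919), SOM replicate 2 (0.0508) or KO replicate 1 (0.0662). The Nwd1 call ended without SOM replicate 1 (adjusted p = 0.102), SOM replicate 2 (0.056) or KO replicate 1 (0.0586). The cytokine gene Osm, oncostatin M of the interleukin-6 family, kept its call without each library, at 19.3 and 14.8 CPM in KO and 0 and 0.376 in SOM (ratio 96.4 with a 95% counting interval of 26.4 to 800.5, edgeR adjusted p = 0.000711). So did Gbp2b, an interferon-induced GTPase, at 26.5 and 18.2 CPM in KO and 0 and 0.188 in SOM (ratio 254 with a 95% counting interval of 45.3 to 10075, edgeR adjusted p = 0.00059). Some Gbp genes resemble each other, so reads may be split among them.
S100a14, a calcium-binding protein of epithelia, was at 10.6 and 8.62 CPM in KO and 0.171 and 0 in SOM (ratio 109 with a 95% counting interval of 19.2 to 4318, edgeR adjusted p = 0.00708). The S100a14 call ended without SOM replicate 1 (adjusted p = 0.0758) or SOM replicate 2 (0.0621). Sh3rf2, of an E3 ubiquitin ligase, was at 14.1 and 15.2 CPM in KO and 0.171 and 0.188 in SOM (ratio 81.6 with a 95% counting interval of 22.3 to 678, edgeR adjusted p = 0.00237). The Sh3rf2 call ended without SOM replicate 1 (adjusted p = 0.0537). The immunoproteasome gene Psmb8 was at 9.15 and 4 CPM in KO and 0.171 and 0 in SOM (ratio 76.7 with a 95% counting interval of 13.5 to 3058, edgeR adjusted p = 0.00566). The Psmb8 call ended without SOM replicate 1 (adjusted p = 0.0581), SOM replicate 2 (0.0508) or KO replicate 1 (0.0562).

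A list of 20 genes reported as targets of the AAGUGC seed held 19 tested genes, of which 6 were called lower in SOM and 0 higher. The fold lay below 0 for 18 of the 19, with a median of −0.96, against 0.03 over all tested genes. The exception was Rhoc, at 11.6 and 17.9 CPM in KO and 18.7 and 14.5 in SOM (log2 fold 0.17 ± 0.42, edgeR adjusted p = 0.869), whose fold fell below 0 without SOM replicate 1 (−0.02) or KO replicate 1 (−0.11). Without SOM replicate 1 none of the 6 calls held. DESeq2 called 10 of the 19 lower and edgeR on the SOM and KO libraries alone 13. These settings also called more genes lower in total, 944 and 1519 against 673 in the main fit. The site AGCACTT was found in the annotated 3′ UTR of 18 of the 19 genes and in 5 of the 6 called lower, the exception being Hivep2.
Sites of the 5 called genes and of the Hippo kinase gene Lats2 are shown because the fold of each is described next. Capitals mark AGCACTT, and the windows are written 5′ to 3′ on the mRNA strand, on GRCm38.
Cdkn1a (chr17:29099813-29099842, plus strand): tcctcagacctgaatAGCACTTtggaaaaa
Cdkn1a (chr17:29100485-29100514, plus strand): taccgtgggtgtcaaAGCACTTagtgggtc
Dazap2 (chr15:100619527-100619556, plus strand): acatcacataccttcAGCACTTctcacaat
Irf2 (chr8:46846649-46846678, plus strand): tgcaccttatcttgaAGCACTTacaatagg
Lefty1 (chr1:180938198-180938227, plus strand): ctgcactgtatgcgaAGCACTTacatgtat
Tgfbr2 (chr9:116089873-116089902, minus strand): actcgggatagcgttAGCACTTgacaatca
Tgfbr2 (chr9:116087764-116087793, minus strand): tatatcaaaacctaaAGCACTTattttcaa
Lats2 (chr14:57691079-57691108, minus strand): gtacagtatggaaagAGCACTTattttgtg
Lats2 (chr14:57690980-57691009, minus strand): tgtgttgtatctgatAGCACTTgtccacag
In 1 window each of Cdkn1a, Irf2, Lefty1, Tgfbr2 and Lats2 the site is followed by an A. A further Tgfbr2 site lies between CCC and GGG, a kind described below, and is not shown.

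Cdkn1a encodes p21, the inhibitor of cyclin-dependent kinases, and stood at 92.6 and 89.8 CPM in KO and 22.3 and 30.4 in SOM (log2 fold −1.79 ± 0.39, edgeR adjusted p = 0.0175). The KO level was several times the SOM level in every pair of libraries. The Cdkn1a call ended without any 1 of the 4 libraries (adjusted p = 0.0647 to 0.196). Irf2, a transcription factor of the interferon regulatory family, was at 15.7 and 7.7 CPM in KO and 0 and 0.376 in SOM (ratio 67.9 with a 95% counting interval of 18.5 to 565, edgeR adjusted p = 0.00529). The Irf2 call ended without SOM replicate 1 (adjusted p = 0.0804).
Lefty1, a secreted inhibitor of Nodal, was at 20.2 and 30.8 CPM in KO and 1.71 and 4.32 in SOM (log2 fold −3.08 ± 0.51, edgeR adjusted p = 0.00514). The Lefty1 call ended without SOM replicate 1 (adjusted p = 0.0819). Its near copy Lefty2, which carries the site too, was at 19.8 and 34 CPM in KO and 9.77 and 19.9 in SOM and was not called (log2 fold −0.86 ± 0.65, edgeR adjusted p = 0.52). Dazap2, an adaptor protein gene on chromosome 15, was at 399 and 393 CPM in KO and 87.8 and 98.3 in SOM (log2 fold −2.09 ± 0.32, edgeR adjusted p = 0.00332). The Dazap2 call ended without SOM replicate 1 (adjusted p = 0.0635).
The type II TGF-beta receptor gene Tgfbr2 was at 7.68 and 10.8 CPM in KO and 2.23 and 2.82 in SOM (log2 fold −1.86 ± 0.49, edgeR adjusted p = 0.0422). The Tgfbr2 call ended without any 1 of the 4 libraries (adjusted p = 0.134 to 0.297). Hivep2, a zinc finger transcription factor, was at 25.4 and 16.8 CPM in KO and 1.54 and 4.88 in SOM (log2 fold −2.72 ± 0.49, edgeR adjusted p = 0.00721). The Hivep2 call ended without SOM replicate 1 (adjusted p = 0.0898) or KO replicate 1 (0.0823). Lats2, at 29.9 and 22.3 CPM in KO and 4.8 and 11.3 in SOM, did not pass the test (log2 fold −1.70 ± 0.54, edgeR adjusted p = 0.0853). Neither did the actin-binding profilin gene Pfn2 (−1.35 ± 0.38, edgeR adjusted p = 0.0526), the caspase gene Casp2 (−0.91 ± 0.27, edgeR adjusted p = 0.0691) or the pocket protein gene Rbl2 (−1.01 ± 0.37, edgeR adjusted p = 0.133). DESeq2 called Lats2 (adjusted p = 0.023), Pfn2 (0.0109) and Casp2 (0.042) lower, and edgeR with no filter on low counts called Lats2 (0.0045) and Pfn2 (0.013).

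**Figure D2:**
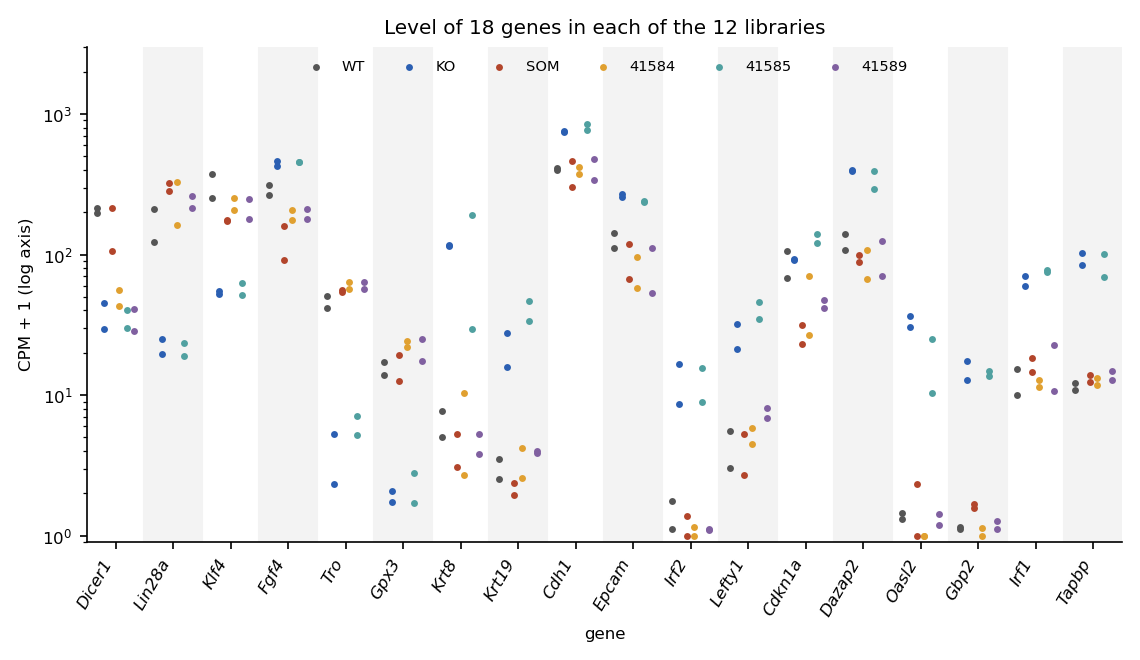
Level of 18 genes as CPM + 1 (vertical log axis) in each of the 12 libraries, 1 point per library, coloured by group. For Lin28a, Klf4, Tro and Gpx3 the SOM points lie above the KO points, for example at 284 and 324 against 18.5 and 24.2 CPM for Lin28a, and for Fgf4 and the genes from Krt8 to Tapbp they lie below them.

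The site was then followed across all 12890 tested genes with an annotated 3′ UTR of at least 50 nucleotides. AGCACTT occurred in 2286 of them (17.7%). Of the genes with the site, 7.48% were called lower in SOM and 1.09% higher, and of those without it 4.42% and 1.69%. The median fold was −0.119 with the site and 0.047 without. Averaged over 5 bins of UTR length, genes with the site lay 0.129 lower on the log2 scale than genes without it, a difference of −0.129. The 4 single pairs of a SOM and a KO library gave −0.139 to −0.109. These pairs used differences of log2(CPM + 1), which shrink at low counts, in place of fitted folds. Genes share libraries and are not replicates, so these values are descriptions without a test.
Without length bins the median stepped down with the number of sites, from 0.047 for the 10604 genes with none to −0.109 for 1856 genes with 1 site and −0.175 for 430 genes with 2 or more. The shares called lower were 4.42, 7.0 and 9.53%. In the fourth length bin the order of 1 site (−0.122, 526 genes) and 2 or more (−0.101, 84 genes) was the other way round, with 8.17 and 7.14% called lower. The 464 genes with an A after the site (AGCACTTA) differed by −0.342 within length bins and by −0.275 without bins, with as few as 8 such genes in the shortest bin, and 11.4% of them were called lower. The related site GCACTTT of the miR-17 family gave −0.188.
Sites of other miRNAs lay nearer to 0. The difference was 0.011 for the let-7 site CTACCTC, −0.046 for the miR-200b site CAGTATT and −0.075 for ACATTCC, the site of the muscle miRNA miR-206. The last of these is nearer to the AGCACTT difference than to 0.
Of all AGCACTT sites, 207 (7.25%) lay directly between CCC and GGG, letters found in the B1 repeat of rodents. The 128 genes with only such sites had a median fold of 0.094, that is 0.047 above genes without a site, and 3.91% were called lower. Leaving out every gene with such a site, a choice made after seeing the data, gave a difference of −0.152.

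**Figure D3:**
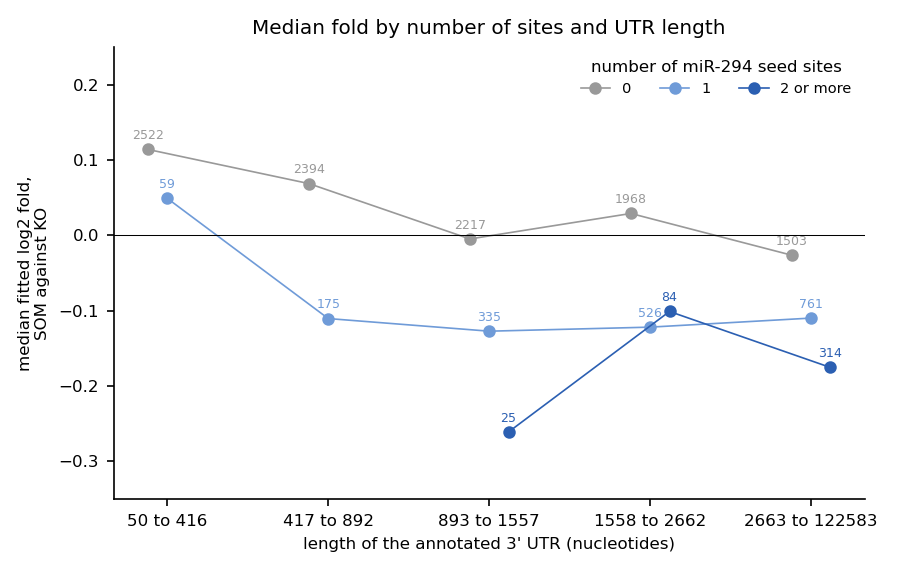
Median fitted log2 fold of SOM against KO (vertical axis) in 5 bins of annotated 3′ UTR length in nucleotides (horizontal axis), by number of AGCACTT sites; numbers beside the points are genes, and bins with fewer than 20 genes are left out. Genes with sites lie below genes without in every bin shown, for example at −0.175 for 2 or more sites and −0.026 for none in the longest bin.

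Epithelial adhesion and keratin genes were lower in SOM as a group. Of 20 tested members 11 fell and 0 rose, all 20 folds lay below 0, and the median was −1.71. The counts were 1, 7, 3 and 5 lower members without SOM replicate 1, SOM replicate 2, KO replicate 1 and KO replicate 2. The summed level of the list was 2523 and 2379 CPM in KO and 968 and 1411 CPM in SOM. In bulk RNA, fewer cells of a type and less RNA per cell cannot be told apart. Krt19, a keratin of simple epithelia, was at 26.6 and 14.9 CPM in KO and 1.37 and 0.939 in SOM (log2 fold −4.14 ± 0.52, edgeR adjusted p = 0.00142), and its call held without each library.
Krt8, at chromosome 15: 101996698–102004482, and its partner Krt18 form the filaments of simple epithelia and have many processed copies in the genome, so their reads are uncertain. Krt8 was at 116 and 115 CPM in KO and 4.28 and 2.07 in SOM (log2 fold −5.16 ± 0.88, edgeR adjusted p = 0.00577). The Krt8 call ended without SOM replicate 1 (adjusted p = 0.0724) or SOM replicate 2 (0.0607). Krt18 was at 69.5 and 77.1 CPM in KO and 7.54 and 3.95 in SOM (log2 fold −3.66 ± 0.76, edgeR adjusted p = 0.0146). The Krt18 call ended without any 1 of the 4 libraries (adjusted p = 0.0533 to 0.113). Both genes lie on chromosome 15, where 41 of 569 tested genes were called lower and 3 higher, with a median fold of −0.25.
Cdh1, the adhesion molecule E-cadherin, was at 759 and 739 CPM in KO and 303 and 462 in SOM (log2 fold −0.97 ± 0.25, edgeR adjusted p = 0.0404). Epcam was at 267 and 256 CPM in KO and 66.3 and 118 in SOM (log2 fold −1.50 ± 0.37, edgeR adjusted p = 0.0313). The changes of these abundant genes were smaller than those of the keratins. The Cdh1 call ended without SOM replicate 1 (adjusted p = 0.352), KO replicate 1 (0.251) or KO replicate 2 (0.167). The Epcam call ended without SOM replicate 1 (adjusted p = 0.295), KO replicate 1 (0.173) or KO replicate 2 (0.112). Esrp1, the splicing regulator of epithelia, was at 157 and 119 CPM in KO and 3.77 and 25.7 in SOM (log2 fold −3.24 ± 0.66, edgeR adjusted p = 0.0131), with the SOM libraries far apart. The Esrp1 call ended without SOM replicate 1 (adjusted p = 0.082) or KO replicate 1 (0.084).
The claudin gene Cldn7 was at 23.4 and 19.6 CPM in KO and 0.514 and 1.5 in SOM (log2 fold −4.41 ± 0.74, edgeR adjusted p = 0.00529). The Cldn7 call ended without SOM replicate 1 (adjusted p = 0.0939). The desmosome gene Dsp was at 143 and 90.8 CPM in KO and 16.3 and 27.4 in SOM (log2 fold −2.42 ± 0.42, edgeR adjusted p = 0.00605). F11r, of tight junctions, fell by edgeR too (−1.20 ± 0.26, adjusted p = 0.0174). The Dsp call ended without SOM replicate 1 (adjusted p = 0.102) or KO replicate 1 (0.0614). The F11r call ended without SOM replicate 1 (adjusted p = 0.202), KO replicate 1 (0.193) or KO replicate 2 (0.052). Cldn4 (−2.07 ± 0.56, adjusted p = 0.0468) and the junction gene Cgn (−1.54 ± 0.42, adjusted p = 0.0467) were called as well. The Cldn4 call ended without any 1 of the 4 libraries (adjusted p = 0.0557 to 0.359). The Cgn call ended without any 1 of the 4 libraries (adjusted p = 0.103 to 0.349).

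Of 13 tested trophectoderm genes 5 fell and 0 rose, among them Krt8 and Krt18 again. The folds of 10 lay below 0 and of 3 above, with a median of −1.39. The summed level was 338 and 342 CPM in KO and 77.1 and 82.1 CPM in SOM. Krt8 and Krt18, at the levels given above, made up most of that sum in KO and most of its fall. Elf5, a transcription factor of trophoblast stem cells, was at 9.27 and 3.69 CPM in KO and 0 and 0.376 in SOM (ratio 38 with a 95% counting interval of 10.2 to 318, edgeR adjusted p = 0.0234). The Elf5 call ended without SOM replicate 1 (adjusted p = 0.22), SOM replicate 2 (0.0653) or KO replicate 1 (0.212). Tead4 was at 60.6 and 55.7 CPM in KO and 19.2 and 34.2 in SOM (log2 fold −1.13 ± 0.30, edgeR adjusted p = 0.043). Hand1 was at 1.83 and 2.16 CPM in KO and 0.171 and 0.188 in SOM (ratio 11 with a 95% counting interval of 2.78 to 95.2, edgeR adjusted p = 0.0463). The Tead4 call ended without SOM replicate 1 (adjusted p = 0.357), KO replicate 1 (0.276) or KO replicate 2 (0.153). The Hand1 call ended without any 1 of the 4 libraries (adjusted p = 0.179 to 0.297), and also with no filter on low counts (0.057). Eomes, another transcription factor of trophoblast stem cells, had the highest fold of the list, at 2.93 and 2.93 CPM in KO and 8.4 and 6.01 in SOM (log2 fold 1.30 ± 0.41, edgeR adjusted p = 0.0833), and was not called except with only the SOM and KO libraries in the fit (adjusted p = 0.0421). The defining marker Cdx2 was at 0.24 and 0 CPM in KO and 0.17 and 0 CPM in SOM, and Gata3 at 1.10 and 0.92 CPM in KO and 0.34 and 0 CPM in SOM. The part of trophoblast-like cells in these differences was not tested.
Zeb1, a repressor of epithelial genes on the mesenchymal list, moved the other way, at 4.03 and 8.31 CPM in KO and 32.4 and 23.7 in SOM (log2 fold 2.19 ± 0.41, edgeR adjusted p = 0.00913). The Zeb1 call ended without SOM replicate 1 (adjusted p = 0.102) or KO replicate 1 (0.141). It was the only one of 11 tested mesenchymal genes called higher, with Sparc, a matrix glycoprotein, called lower (−0.84 ± 0.22, edgeR adjusted p = 0.0452). The shares over all tested genes were 1.48% higher and 4.60% lower. The Sparc call ended without any 1 of the 4 libraries (adjusted p = 0.133 to 0.33). The miR-200 family is known to act on Zeb1.

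Of 34 tested interferon-stimulated genes and sensors of double-stranded RNA, 14 fell in SOM and 0 rose, 30 folds lay below 0, and the median was −1.60. Leaving out a library in the same order as before gave 3, 5, 2 and 6 lower members. Summed over the list, KO held 1107 and 969 CPM and SOM 626 and 727 CPM. Gbp2, an interferon-induced GTPase at chromosome 3: 142620602–142638008, was at 16.6 and 11.7 CPM in KO and 0.686 and 0.564 in SOM (log2 fold −4.46 ± 0.57, edgeR adjusted p = 0.00142). Oasl2, of the oligoadenylate synthetase family, was at 35.4 and 29.6 CPM in KO and 0 and 1.32 in SOM (log2 fold −5.64 ± 0.85, edgeR adjusted p = 0.00362). Both calls held without any single library.
Irf1, a transcription factor that switches on interferon genes, was at 69.5 and 58.8 CPM in KO and 13.7 and 17.5 in SOM (log2 fold −2.04 ± 0.37, edgeR adjusted p = 0.0075). The Irf1 call ended without SOM replicate 1 (adjusted p = 0.115) or KO replicate 1 (0.0719). Irf9, the DNA-binding subunit of the interferon response complex, was at 54.5 and 51.6 CPM in KO and 16.8 and 21.8 in SOM (log2 fold −1.46 ± 0.31, edgeR adjusted p = 0.0172). The Irf9 call ended without any 1 of the 4 libraries (adjusted p = 0.0612 to 0.193). Eif2ak2 encodes PKR, the kinase that double-stranded RNA activates, and stood at 102 and 99.9 CPM in KO and 40.8 and 56.2 in SOM (log2 fold −1.06 ± 0.26, edgeR adjusted p = 0.0294). The Eif2ak2 call ended without any 1 of the 4 libraries (adjusted p = 0.057 to 0.276).
Ifih1, the RNA sensor MDA5, had no read in SOM, at 4.27 and 1.85 CPM in KO and 0 and 0 in SOM (at least 11.9-fold lower in SOM, edgeR adjusted p = 0.0421). Gbp3 also had none, at 3.66 and 3.54 CPM in KO and 0 and 0 in SOM (at least 13.4-fold lower in SOM, edgeR adjusted p = 0.0147). The Ifih1 call ended without any 1 of the 4 libraries (adjusted p = 0.082 to 0.256). The Gbp3 call ended without any 1 of the 4 libraries (adjusted p = 0.0546 to 0.133). The antiviral genes Rsad2 (7.2 and 4.31 CPM in KO and 0.171 and 0.564 in SOM; log2 fold −3.94 ± 1.03, edgeR adjusted p = 0.0418) and Zbp1 (17.1 and 12 CPM in KO and 0.171 and 2.25 in SOM; log2 fold −3.60 ± 0.82, edgeR adjusted p = 0.0219) were also low in SOM. The Rsad2 call ended without any 1 of the 4 libraries (adjusted p = 0.09 to 0.318). The Zbp1 call ended without SOM replicate 1 (adjusted p = 0.19), KO replicate 1 (0.147) or KO replicate 2 (0.0602).
Oas1a, one of several close copies, was at 51.1 and 31.1 CPM in KO and 11.7 and 7.7 in SOM (log2 fold −2.08 ± 0.47, edgeR adjusted p = 0.0215). The Oas1a call ended without SOM replicate 1 (adjusted p = 0.121), SOM replicate 2 (0.144) or KO replicate 1 (0.216). The other called members were Oas1b (2.44 and 1.39 CPM in KO and 0 and 0.188 in SOM; ratio 22 with a 95% counting interval of 3.65 to 899, edgeR adjusted p = 0.0455), Parp14 (−1.54 ± 0.40, adjusted p = 0.0387), Ifi35 (−2.57 ± 0.51, adjusted p = 0.0125) and Psmb8. The Oas1b call ended without any 1 of the 4 libraries (adjusted p = 0.0967 to 0.327). The Parp14 call ended without any 1 of the 4 libraries (adjusted p = 0.09 to 0.306). The Ifi35 call ended without SOM replicate 2 (adjusted p = 0.0942) or KO replicate 1 (0.132). The call of Oas1b was also lost by DESeq2 (adjusted p = 0.0916). Ddx58, the RNA sensor RIG-I, was at 126 and 107 CPM in KO and 106 and 107 in SOM and was not called (log2 fold −0.13 ± 0.71, edgeR adjusted p = 0.945). Isg15, Irf7, Ifit3 and Usp18 had at most 0.49 CPM in any of the 4 libraries and were not tested.

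Promoter letters of the 6 called interferon genes that hold them, and of Erap1 from the antigen presentation list described next, are shown because interferon regulatory factors are known to bind repeats of GAAA. The letters GAAA, any 2 bases and GAAA again were searched on both strands, overlapping matches included. The window ran from 250 bases before to 50 after the RefSeq start site. They occurred in 3.99% of 27025 promoters, in 3.50% of those of tested genes, in 15 of the 28 promoters of tested interferon genes (53.6%) and in 6 of the 11 of the members called lower (54.5%). They were found in 7.03% of 498 promoters of all genes called lower and in 4.02% of 174 of those called higher. Capitals mark the letters, on the strand that holds them, on GRCm38.p6.
Gbp2 (chr3:142620594-142620623, minus strand): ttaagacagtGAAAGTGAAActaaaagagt
Oas1a (chr5:120907520-120907549, minus strand): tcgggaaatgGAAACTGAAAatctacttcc
Eif2ak2 (chr17:78882535-78882564, minus strand): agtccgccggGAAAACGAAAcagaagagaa
Rsad2 (chr12:26456553-26456582, plus strand): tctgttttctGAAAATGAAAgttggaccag
Gbp3 (chr3:142559989-142560018, minus strand): ctgggaaataGAAACTGAAActgtgtcctg
Ifih1 (chr2:62646206-62646233, minus strand): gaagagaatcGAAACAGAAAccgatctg
Erap1 (chr13:74639839-74639868, minus strand): gcccgggaccGAAAGTGAAAgtgaaggtgg
A match describes the sequence and does not show binding.

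Of 13 tested genes of MHC class I presentation 4 fell in SOM and 0 rose, with a median of −1.65. The list held 259 and 213 CPM in KO and 75.8 and 62.8 CPM in SOM. Tapbp, the tapasin that loads peptides, was at 101 and 83.6 CPM in KO and 12.9 and 11.5 in SOM (log2 fold −2.93 ± 0.28, edgeR adjusted p = 0.000492). Erap1, which trims peptides in the endoplasmic reticulum and whose promoter window is above, was at 51.5 and 38.5 CPM in KO and 2.74 and 3.95 in SOM (log2 fold −3.75 ± 0.41, edgeR adjusted p = 0.00059). Both calls held whichever library was left out.
Tap2, a subunit of the peptide transporter, had no read in SOM (1.59 and 1.85 CPM in KO and 0 and 0 in SOM; at least 6.33-fold lower in SOM, edgeR adjusted p = 0.0404). The Tap2 call ended without any 1 of the 4 libraries (adjusted p = 0.127 to 0.241). The heavy chain genes H2-K1 (−0.77 ± 0.59, adjusted p = 0.53) and H2-D1 (−1.03 ± 0.47, adjusted p = 0.242) and the light chain gene B2m (−0.11 ± 0.42, adjusted p = 0.917) were not called by edgeR. Psme2, of the proteasome activator, is outside the list and was at 118 and 89.3 CPM in KO and 27.3 and 25.4 in SOM (log2 fold −1.98 ± 0.25, edgeR adjusted p = 0.00144).

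Immediate early genes, which respond within minutes to serum and stress, were lower in SOM for 8 of 16 tested members and higher for 0, with a median of −1.39. Without single libraries, in the order used above, 2, 5, 2 and 5 members were called lower. Dusp1, a phosphatase that switches off MAP kinases, was at 65.4 and 60.04 CPM in KO and 14.2 and 12.8 in SOM (log2 fold −2.21 ± 0.31, edgeR adjusted p = 0.00222). The zinc finger factor gene Klf6 was at 144 and 156 CPM in KO and 32.6 and 53.7 in SOM (log2 fold −1.80 ± 0.26, edgeR adjusted p = 0.00265). Their calls held without any single library. The AP-1 subunit gene Jun was at 22.2 and 19.1 CPM in KO and 3.09 and 1.69 in SOM (log2 fold −3.10 ± 0.59, edgeR adjusted p = 0.00977). Fosl2, of the same complex, was at 17.7 and 20.01 CPM in KO and 1.71 and 2.63 in SOM (log2 fold −3.11 ± 0.57, edgeR adjusted p = 0.00808). The Jun call ended without SOM replicate 1 (adjusted p = 0.0793), SOM replicate 2 (0.0883) or KO replicate 1 (0.0719). The Fosl2 call ended without SOM replicate 1 (adjusted p = 0.126) or KO replicate 1 (0.0527).
Fos was at 15.7 and 16.8 CPM in KO and 3.94 and 6.76 in SOM (log2 fold −1.60 ± 0.43, edgeR adjusted p = 0.0434). The Fos call ended without any 1 of the 4 libraries (adjusted p = 0.0811 to 0.347). Zfp36, which destabilises AU-rich mRNAs, was at 17.6 and 13.5 CPM in KO and 2.74 and 4.51 in SOM (log2 fold −2.10 ± 0.40, edgeR adjusted p = 0.0101). The Zfp36 call ended without SOM replicate 1 (adjusted p = 0.148) or KO replicate 1 (0.121). Ier3 (−2.62 ± 0.68, adjusted p = 0.0414) and Jund (−1.70 ± 0.45, adjusted p = 0.0422) were called too. The Ier3 call ended without any 1 of the 4 libraries (adjusted p = 0.138 to 0.211). The Jund call ended without any 1 of the 4 libraries (adjusted p = 0.131 to 0.28). Myc, at 11.7 and 13.2 CPM in KO and 43.4 and 23.9 in SOM, had the only fold above 0 and was not called (log2 fold 1.43 ± 0.62, edgeR adjusted p = 0.207). With no filter on low counts Myc was called higher (adjusted p = 0.0116).

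Core and naive pluripotency genes did not move in 1 direction, with a median of 0.24. Of 22 tested members 4 rose and 2 fell, against 1.48% and 4.60% over all tested genes. The summed level was 9214 and 8984 CPM in KO and 8711 and 8408 CPM in SOM. Klf4 rose, as given above, and Klf5 rose with it, at 47.7 and 43.6 CPM in KO and 97.9 and 113 in SOM (log2 fold 1.21 ± 0.26, edgeR adjusted p = 0.0186), whereas Klf2 fell, at 176 and 163 CPM in KO and 71.6 and 70.1 in SOM (log2 fold −1.26 ± 0.24, edgeR adjusted p = 0.00903). All 3 are Krüppel-like factors of the naive network. The Klf5 call ended without any 1 of the 4 libraries (adjusted p = 0.0931 to 0.164). The Klf2 call ended without SOM replicate 1 (adjusted p = 0.1), SOM replicate 2 (0.0647) or KO replicate 1 (0.0995).
Fgf4, the growth factor that primes embryonic stem cells to differentiate, was at 466 and 429 CPM in KO and 90.2 and 157 in SOM (log2 fold −1.85 ± 0.27, edgeR adjusted p = 0.00237), and its call held without each library. Tcl1, a coactivator of Akt, was at 11.8 and 13.5 CPM in KO and 54.5 and 49.8 in SOM (log2 fold 2.04 ± 0.37, edgeR adjusted p = 0.00802). The nuclear receptor gene Nr5a2 was at 53.4 and 55.7 CPM in KO and 109.9 and 139 in SOM (log2 fold 1.19 ± 0.31, edgeR adjusted p = 0.0422). The Tcl1 call ended without SOM replicate 1 (adjusted p = 0.0743), KO replicate 1 (0.107) or KO replicate 2 (0.059). The Nr5a2 call ended without any 1 of the 4 libraries (adjusted p = 0.135 to 0.281). The other core factors Sox2 (0.02 ± 0.28, adjusted p = 0.981), Nanog (0.18 ± 0.24, adjusted p = 0.743), Pou5f1 (0.42 ± 0.43, adjusted p = 0.654) and Esrrb (0.52 ± 0.23, adjusted p = 0.236) were not called by edgeR.
Spry2, an inhibitor of receptor tyrosine kinase signalling on the formative list, was at 30.4 and 29.3 CPM in KO and 87.4 and 71.6 in SOM (log2 fold 1.41 ± 0.26, edgeR adjusted p = 0.00765). Etv4, an ETS factor downstream of FGF, was at 32 and 39.9 CPM in KO and 144 and 92.6 in SOM (log2 fold 1.72 ± 0.47, edgeR adjusted p = 0.0499). These were the only 2 of 13 tested formative genes called, both higher, where 1.48% of all tested genes were called higher. The Spry2 call ended without SOM replicate 1 (adjusted p = 0.0907), KO replicate 1 (0.0924) or KO replicate 2 (0.0818). The Etv4 call ended without any 1 of the 4 libraries (adjusted p = 0.0809 to 0.336). Dnmt3l, the cofactor of de novo DNA methylation, was at 75.9 and 94.5 CPM in KO and 405 and 229.6 in SOM (log2 fold 1.90 ± 0.42, edgeR adjusted p = 0.0198). It was the only one called of 13 tested methylation genes, against 6.08% of all tested genes. The Dnmt3l call ended without SOM replicate 1 (adjusted p = 0.205), KO replicate 1 (0.204) or KO replicate 2 (0.1).

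Of 13 tested endoderm genes 2 rose and 1 fell, against 1.48% and 4.60% over all tested genes. Lama1, the laminin alpha 1 chain (20.4 and 33.6 CPM in KO and 85.7 and 141 in SOM; log2 fold 2.07 ± 0.44, edgeR adjusted p = 0.0162), and Sox7 (0.122 and 0.154 CPM in KO and 3.6 and 1.69 in SOM; ratio 19.8 with a 95% counting interval of 5.01 to 171, edgeR adjusted p = 0.0267) rose and Sparc fell, and the list median was 1.25. No call of the list held without SOM replicate 1, KO replicate 1 or KO replicate 2. The Lama1 call ended without any 1 of the 4 libraries (adjusted p = 0.053 to 0.191). The Sox7 call ended without SOM replicate 1 (adjusted p = 0.217), KO replicate 1 (0.252) or KO replicate 2 (0.152). The endoderm genes Afp and Ttr were at 0 in all 4 libraries. Sox17, not tested either, was at 0 and 0.154 CPM in KO and 0.171 and 0 in SOM. Gata6 was at 0 and 0.154 CPM in KO and 2.06 and 1.32 in SOM (ratio 25 with a 95% counting interval of 3.98 to 1039.8, edgeR adjusted p = 0.058). With no filter on low counts Gata6 was called (adjusted p = 0.00281). Nes, an intermediate filament gene of neural progenitors, was at 41.1 and 45 CPM in KO and 18.5 and 15 in SOM (log2 fold −1.36 ± 0.33, edgeR adjusted p = 0.0294), the only call among 5 tested neuroectoderm genes. The Nes call ended without any 1 of the 4 libraries (adjusted p = 0.153 to 0.162). No member was called of the 4 tested mesendoderm genes, 7 Hox genes, 18 genes of the 2-cell-like state or 4 fibroblast genes.

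Genes of secreted signals and matrix moved in both directions. Among all tested genes 1.48% were called higher in SOM and 4.60% lower. In the Nodal, TGF-beta and BMP list 3 of 22 tested members fell and 1 rose. The fallen ones were Lefty1 and Tgfbr2, described above, and Id2, a dominant-negative helix-loop-helix factor, at 38.1 and 50.8 CPM in KO and 11.1 and 11.5 in SOM (log2 fold −1.97 ± 0.43, edgeR adjusted p = 0.0184). Tgfb1, the ligand TGF-beta 1, rose from a low level (1.59 and 1.54 CPM in KO and 5.14 and 6.01 in SOM; log2 fold 1.82 ± 0.49, edgeR adjusted p = 0.0441). The Id2 call ended without any 1 of the 4 libraries (adjusted p = 0.0758 to 0.174). The Tgfb1 call ended without any 1 of the 4 libraries (adjusted p = 0.158 to 0.301), and also with no filter on low counts (0.0528).
Of 15 tested Wnt genes, the feedback inhibitor Axin2 rose (0.61 and 0.154 CPM in KO and 5.31 and 4.51 in SOM; log2 fold 3.57 ± 0.64, edgeR adjusted p = 0.00732) and the ligand gene Wnt7b, on chromosome 15, fell (30.4 and 32 CPM in KO and 2.4 and 3.19 in SOM; log2 fold −3.48 ± 0.93, edgeR adjusted p = 0.0451). The Axin2 call ended without SOM replicate 1 (adjusted p = 0.067) or KO replicate 2 (0.0801). The Wnt7b call ended without any 1 of the 4 libraries (adjusted p = 0.131 to 0.311).
Among 20 tested matrix and integrin genes, Matn3 (0.122 and 0.154 CPM in KO and 3.43 and 2.82 in SOM; ratio 23.1 with a 95% counting interval of 5.92 to 198, edgeR adjusted p = 0.0294), Acan, the cartilage proteoglycan aggrecan (0.976 and 0.308 CPM in KO and 11 and 3.19 in SOM; log2 fold 3.38 ± 0.79, edgeR adjusted p = 0.0246), and Lama1 rose. Thbs1, thrombospondin 1 (16 and 26 CPM in KO and 1.37 and 2.07 in SOM; log2 fold −3.60 ± 0.66, edgeR adjusted p = 0.00804), Nid1, which links laminin to collagen (548 and 543 CPM in KO and 189 and 278 in SOM; log2 fold −1.22 ± 0.25, edgeR adjusted p = 0.0137), and the integrin subunit gene Itgav (160.0 and 145 CPM in KO and 31.2 and 66.9 in SOM; log2 fold −1.64 ± 0.35, edgeR adjusted p = 0.0164) fell. The Matn3 call ended without any 1 of the 4 libraries (adjusted p = 0.0781 to 0.241). The Acan call ended without SOM replicate 1 (adjusted p = 0.293), KO replicate 1 (0.113) or KO replicate 2 (0.181). The Thbs1 call ended without SOM replicate 1 (adjusted p = 0.124), SOM replicate 2 (0.0526) or KO replicate 2 (0.052). The Nid1 call ended without SOM replicate 1 (adjusted p = 0.183), KO replicate 1 (0.114) or KO replicate 2 (0.0783). The Itgav call ended without SOM replicate 1 (adjusted p = 0.172), KO replicate 1 (0.12) or KO replicate 2 (0.0602).

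Genes of glutathione use and oxidative stress were lower in SOM for 6 of 20 tested members and higher for 0, with a median of −0.79. Without single libraries, in the same order, 1, 3, 2 and 3 of them were called. Cat, the catalase that removes hydrogen peroxide, was at 153 and 149 CPM in KO and 62.9 and 65.6 in SOM (log2 fold −1.23 ± 0.21, edgeR adjusted p = 0.00573). The metallothionein genes Mt1 (67.1 and 59.4 CPM in KO and 20.9 and 12.4 in SOM; log2 fold −1.92 ± 0.43, edgeR adjusted p = 0.0209) and Mt2 (150.1 and 152 CPM in KO and 48 and 33.1 in SOM; log2 fold −1.90 ± 0.33, edgeR adjusted p = 0.00633) were lower as well. The Cat call ended without SOM replicate 1 (adjusted p = 0.0764) or KO replicate 1 (0.0635). The Mt1 call ended without any 1 of the 4 libraries (adjusted p = 0.0708 to 0.144). The Mt2 call ended without SOM replicate 2 (adjusted p = 0.0622). The replicates of catalase lay within a few CPM of each other on both sides.
Gpx2, a glutathione peroxidase of epithelia, was at 129 and 88.4 CPM in KO and 2.06 and 16 in SOM (log2 fold −3.60 ± 0.84, edgeR adjusted p = 0.0253), with the SOM libraries far apart and the opposite direction to Gpx3. The Gpx2 call ended without SOM replicate 1 (adjusted p = 0.203), KO replicate 1 (0.143) or KO replicate 2 (0.0602). The glutathione transferase gene Gstm2 was at 55.5 and 51 CPM in KO and 12 and 10.7 in SOM (log2 fold −2.23 ± 0.37, edgeR adjusted p = 0.00507). The quinone reductase gene Nqo1 was at 52.8 and 53.7 CPM in KO and 17.8 and 22 in SOM (log2 fold −1.42 ± 0.35, edgeR adjusted p = 0.0323). The Gstm2 call ended without SOM replicate 1 (adjusted p = 0.0646). The Nqo1 call ended without any 1 of the 4 libraries (adjusted p = 0.106 to 0.265).
Among 23 tested glycolysis genes only Slc2a3, a glucose transporter, was called, against 6.08% of all tested genes. It was at 569 and 514 CPM in KO and 1282 and 1101 in SOM (log2 fold 1.14 ± 0.31, edgeR adjusted p = 0.0496). The Slc2a3 call ended without any 1 of the 4 libraries (adjusted p = 0.113 to 0.283). No member of the lists of 21 tested genes of the amino acid response, 24 ribosomal protein genes or 13 mitochondrially encoded genes was called. The ribosomal protein folds all lay above 0 with a median of 0.39, and shorter transcripts in general lay slightly higher, from a median of 0.165 in the shortest of 5 length bins to −0.075 in the longest.

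Regulators of the G1 to S step held 2 calls in 24 tested genes, both lower, where 4.60% of all tested genes were called lower, and the list median was 0.01. These were Cdkn1a, and Cdkn2b, which encodes p15, at 5.37 and 4.16 CPM in KO and 0.514 and 0.939 in SOM (log2 fold −2.70 ± 0.58, edgeR adjusted p = 0.0174). The Cdkn2b call ended without any 1 of the 4 libraries (adjusted p = 0.0602 to 0.195). Of 20 tested p53 targets Aen rose (0.85 ± 0.21, edgeR adjusted p = 0.0345) and Cdkn1a fell, against 1.48% and 4.60% over all tested genes. The Aen call ended without any 1 of the 4 libraries (adjusted p = 0.0913 to 0.289), and also with no filter on low counts (0.079).
Among 20 tested genes reported as let-7 targets, Lin28a and Dicer1 rose, as above, and Hmga2, a chromatin protein, fell. Over all tested genes the shares were 1.48% higher and 4.60% lower. Since SOM and KO differ in Dicer1 by label, its rise does not describe the list. Hmga2 was at 101 and 73.4 CPM in KO and 29.8 and 21.6 in SOM (log2 fold −1.76 ± 0.33, edgeR adjusted p = 0.00889). The Hmga2 call ended without SOM replicate 1 (adjusted p = 0.0646), SOM replicate 2 (0.0809) or KO replicate 1 (0.113). Trim71, a let-7 target in several species, was not called, at 291 and 296 CPM in KO and 383 and 343 in SOM (log2 fold 0.30 ± 0.24, edgeR adjusted p = 0.544).
Of 26 tested miRNA host transcripts 2 were lower, where 4.60% of all tested genes were called lower. Sfmbt2, the imprinted host of a large rodent miRNA cluster, was at 149.5 and 287 CPM in KO and 61 and 34.4 in SOM (log2 fold −2.19 ± 0.43, edgeR adjusted p = 0.0108). Mir142hg was at 2.32 and 1.23 CPM in KO and 0 and 0 in SOM (at least 6.83-fold lower in SOM, edgeR adjusted p = 0.031). The Sfmbt2 call ended without SOM replicate 1 (adjusted p = 0.0579), SOM replicate 2 (0.0947) or KO replicate 2 (0.0879). The Mir142hg call ended without any 1 of the 4 libraries (adjusted p = 0.0691 to 0.202).
In the imprinted list 2 of 24 tested genes were called, against 6.08% of all tested genes. Igf2, the fetal growth factor, fell, at 75.5 and 123 CPM in KO and 6.17 and 1.88 in SOM (log2 fold −4.60 ± 0.91, edgeR adjusted p = 0.0117). Mest rose, at 36.8 and 50.5 CPM in KO and 160.4 and 97.1 in SOM (log2 fold 1.56 ± 0.43, edgeR adjusted p = 0.0491). The Igf2 call ended without SOM replicate 1 (adjusted p = 0.0819), SOM replicate 2 (0.0969) or KO replicate 2 (0.0545). The Mest call ended without any 1 of the 4 libraries (adjusted p = 0.067 to 0.359), and also with RLE size factors (0.0514). Among 23 tested germline genes known to be silenced by DNA methylation, the meiotic gene Sycp3 rose (18.8 and 16.6 CPM in KO and 59.5 and 51.7 in SOM; log2 fold 1.65 ± 0.39, edgeR adjusted p = 0.0264). The X-linked homeobox genes Rhox6 (29 and 22.3 CPM in KO and 1.03 and 1.13 in SOM; log2 fold −4.56 ± 1.00, edgeR adjusted p = 0.0187) and Rhox9 (22.7 and 21.6 CPM in KO and 1.89 and 1.32 in SOM; log2 fold −3.77 ± 0.92, edgeR adjusted p = 0.0304), which resemble each other and may share reads, fell. The Sycp3 call ended without any 1 of the 4 libraries (adjusted p = 0.0757 to 0.181). The Rhox6 call ended without any 1 of the 4 libraries (adjusted p = 0.0509 to 0.192). The Rhox9 call ended without any 1 of the 4 libraries (adjusted p = 0.0902 to 0.21). Of 22 tested lysosome genes only the membrane protein gene Lamp2 was called, and it fell (−1.55 ± 0.41, edgeR adjusted p = 0.0449). That is a share near the 6.08% called among all tested genes. The Lamp2 call ended without any 1 of the 4 libraries (adjusted p = 0.0529 to 0.359).

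**Figure D4:**
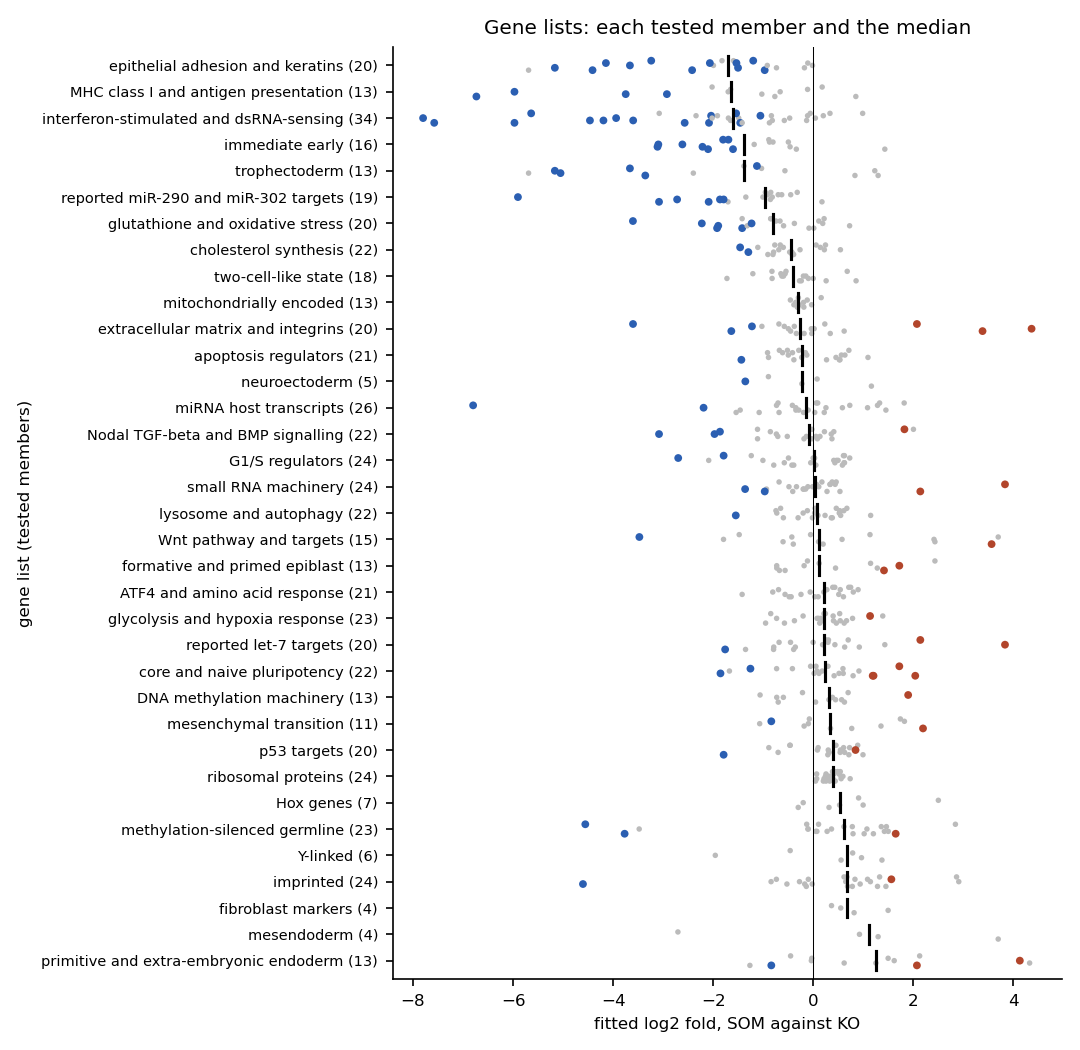
Fitted log2 fold of SOM against KO (horizontal axis) for each tested member of the 35 gene lists (vertical axis, with the number tested), ordered by list median. Black bars are medians, red points are members called higher, blue points members called lower and grey points members not called; the epithelial, MHC class I and interferon lists have medians of −1.71, −1.65 and −1.60.

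The lines 41584 and 41585 give the same genes in libraries that SOM and KO do not share. The 41584 libraries stood far apart on the second principal component of all 12 libraries, at 27.0 and −51.1, with replicate 2 near the SOM libraries (−39.6 and −45.2) and replicate 1 near WT replicate 2 (27.5). There, 1861 of 14629 genes were called (12.7%), 742 higher in 41584 (5.07%) and 1119 lower (7.65%). Of the 216 genes higher in SOM than KO, 216 lay above 0 in 41584 against 41585, and 132 were called higher there too, which is 61.1% of the SOM list and 17.8% of the 41584 list. Of the 673 genes lower in SOM, 667 lay below 0 and 468 were called lower, 69.5% of the SOM list and 41.8% of the other. Over all tested genes 50.5% lay above 0. The median fold of the SOM lists in 41584 against 41585 was 1.59 for the higher and −1.76 for the lower genes, and no gene was called in opposite directions. Both comparisons came from the same fit, which gives each gene a single estimate of spread, so the shared calls are not independent. With only the 41584 and 41585 libraries in the fit, 403 genes were called in 41584 against 41585.
Leaving out 41585 replicate 1 took the 1861 calls to 348, and leaving out 41585 replicate 2 took them to 561. Without 41584 replicate 1 there were 1820 and without 41584 replicate 2 there were 1475.

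**Figure D5:**
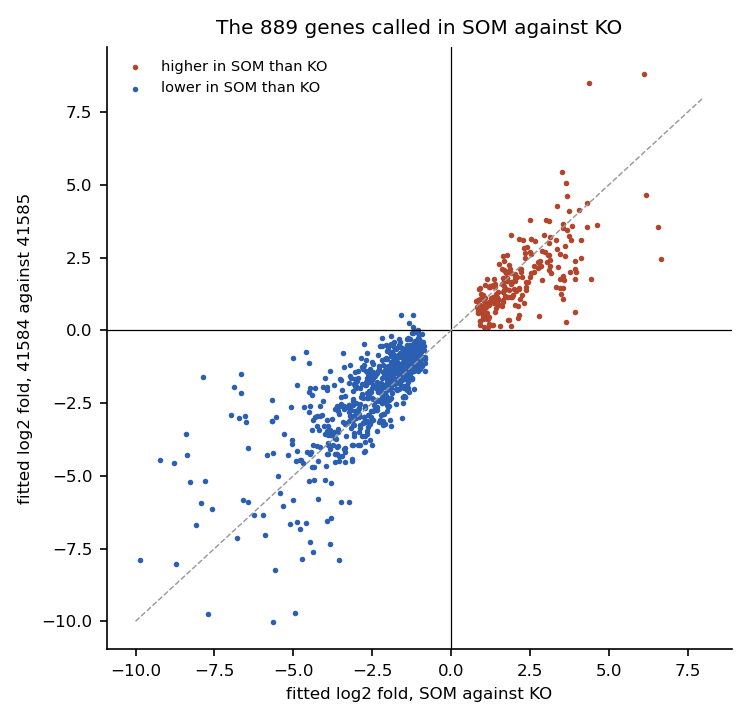
Fitted log2 fold of the 889 genes called in SOM against KO (horizontal axis) plotted against the fold of the same genes in 41584 against 41585 (vertical axis); the dashed line marks equal folds. Red points, the 216 genes higher in SOM, all lie above 0 on the vertical axis, and 667 of the 673 blue points lie below 0.

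Gene by gene the levels ran alike in many cases. Lin28a was at 162 and 326 CPM in 41584 and 18 and 22.4 in 41585 (log2 fold 3.60 ± 0.37, edgeR adjusted p = 0.000306), Klf4 at 253 and 208 CPM in 41584 and 50.4 and 61.5 in 41585 (log2 fold 2.04 ± 0.26, edgeR adjusted p = 0.00106) and Krt19 at 3.2 and 1.55 CPM in 41584 and 45.7 and 32.9 in 41585 (log2 fold −4.02 ± 0.48, edgeR adjusted p = 0.000612). Gbp2 was at 0.128 and 0 CPM in 41584 and 12.8 and 13.8 in 41585, and Tapbp at 10.7 and 12.1 CPM in 41584 and 101 and 67.9 in 41585 (log2 fold −2.88 ± 0.28, edgeR adjusted p = 0.000216). In each of these genes both 41584 libraries lay on the SOM side of both 41585 libraries. Of the lists, epithelial genes had 12 of 20 called lower and 0 higher in 41584 with a median of −1.49, interferon genes 16 of 34 and 0 with −1.70, and immediate early genes 8 of 16 and 0 with −1.38.
The glutathione list had 10 of 20 called lower with a median of −0.97, and the reported AAGUGC-seed targets 6 of 19 with −0.81. For the trophectoderm list 3 of 13 were lower with a median of −0.20, where 41585 replicate 1 held 406 CPM in sum and 41585 replicate 2 held 139 CPM. The endoderm list had 7 of 13 called higher and a median of 1.58. The difference for the site AGCACTT was −0.076 within length bins but 0.081 without them, so its direction there depended on the bins, while AGCACTTA gave −0.330 within bins. The sites of other miRNAs moved as much or more there, with −0.145 for let-7, 0.144 for miR-200b and −0.074 for miR-206 within bins. Without bins the median in 41584 against 41585 rose with the number of AGCACTT sites, from −0.026 with none to 0.052 with 1 and 0.074 with 2 or more.

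The size of the difference between the comparisons was tested as well. No gene passed (smallest edgeR adjusted p = 0.589), with 1161 genes at an unadjusted p under 0.05, and DESeq2 called 1. With no filter on low counts edgeR called 96, and without KO replicate 1 it called 4. Dicer1, with 42.3 and 55 CPM in 41584 and 29.1 and 39.2 in 41585, had a log2 fold of 0.51 ± 0.34 there (difference 1.63 ± 0.49, edgeR adjusted p = 0.589). Fmr1nb was at 27.7 and 21 CPM in 41584 and 10.5 and 21.2 in 41585 (log2 fold 0.62 ± 0.45, edgeR adjusted p = 0.355), and its folds differed by 3.32 ± 0.70 without passing the adjustment (edgeR adjusted p = 0.589). Igf2 was at 6.52 and 8.24 CPM in 41584 and 23 and 1.29 in 41585 (log2 fold −0.73 ± 0.81, edgeR adjusted p = 0.551), with 41585 replicate 1 far above replicate 2. A missed threshold does not show that the comparisons were equal in size.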

How the data were processed

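Raw counts for 47643 Ensembl genes were deposited by the authors, who aligned reads with STAR 2.4.2a to mm10 (GRCm38) per the submitters' processing notes. The counting program, strand setting and annotation (not given in the sources used here) decide how overlapping and antisense genes share reads. GENCODE M21 gave symbols to 47224 genes and left 419 without. All 12 libraries (5348401 to 10428509 counts) were fitted with 1 mean per group in edgeR 4.0.16 (filterByExpr, TMM, robust quasi-likelihood), leaving 14629 genes. The common biological variation was 0.278 on 6 residual degrees of freedom. Adjusted p is by Benjamini-Hochberg over all tested genes of a comparison. Intervals are at 95% and cover counting error only. Lower bounds set the group without reads to 3 counts and leave out the counting error of the other group. Sites were searched in the longest annotated 3′ UTR of each gene, in 5 length bins. The members, the 35 lists and the tests were chosen with earlier results of these data known, and medians and counts of a list are descriptions.

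Genes were named by rule: the small RNA machinery, the 10 largest called folds in each direction with at least 5 CPM and an ordinary symbol, and of each list up to 4 members with the smallest p plus called members. Genes called whichever library was left out were added after seeing their values. Some genes that the rule names are not reported here. Alternatives were DESeq2 1.42.0, RLE size factors, no filter, the compared groups alone, a replicate block, leaving out chromosomes 15 and Y, and leaving out each library, where the spread of a lone library was taken from the other groups.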

Additional observations from a re-analysis of the deposited data

How the results depend on the processing

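For SOM against KO, 889 genes were called. RLE size factors gave 912, DESeq2 1294 and leaving out chromosomes 15 and Y 890. With no filter on low counts 1544 genes were called, and with only the SOM and KO libraries in the fit 2265. Leaving out 1 library gave 107 to 368. For 41584 against 41585, with 1861 calls, the count was 3073 with no filter, 403 with only its own libraries and 348 to 1820 with 1 library left out. For the difference of the comparisons, with 0 calls, it was 96 with no filter, 1 by DESeq2 and 0 to 4 with 1 library left out. The site difference of −0.129 was −0.342 for 8 bases, −0.144 for 6 bases, −0.166 with no length bins and −0.109 to −0.142 with 1 library left out. Of the alternatives chosen after seeing the data, GC bins gave −0.163 and leaving out genes with a site between CCC and GGG −0.152. No gene called for SOM against KO and named here changed sign under these alternatives. Of named genes that were not called, Rhoc, Sox2, Nanog, B2m and Tnrc6c, all near 0, changed sign with 1 library left out. For 41584 against 41585 the site difference of −0.076 turned to 0.081 with no length bins. The cause of the moves was not tested.

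Same-numbered SOM and KO libraries deviated together at a correlation of only 0.05, and over all pairs of groups the correlations ran from −0.08 to 0.51, so the numbers were not taken to pair the libraries. With the replicate number as a block 1084 genes were called for SOM against KO, 2170 for 41584 against 41585 and 0 for their difference. With 2 libraries per group and 5348401 to 8357647 counts, genes at a few counts carry wide intervals.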
